A study of Rattus norvegicus with 22 samples.

Results

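Anxa1, Anxa2, S100a6, Crip1 and Tagln are 5 genes grouped here as annexins and calcium or actin partners. They were taken as a named set, by symbol, with earlier results of these data known. They are 5 of the 32545 gene identifiers counted in rat cortex, of which 23572 had at least 1 count. Symbols could be paired with 1822 identifiers, through tables that mostly list genes the study called different ipsilaterally. The ipsilateral calls of these genes are therefore not independent of the way they were named. The identifiers are ENSRNOG00000017469 (Anxa1), ENSRNOG00000010362 (Anxa2), ENSRNOG00000011647 (S100a6), ENSRNOG00000027990 (Crip1) and ENSRNOG00000017628 (Tagln).

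The samples were cortical tissue of adult male rats of a strain the labels spell Sprague-Daley (Sprague-Dawley in the study's methods), 6 with penetrating ballistic brain injury (PBBI) and 5 with sham surgery. PBBI was a right frontal injury, made by a probe whose balloon was inflated inside the brain, and sham rats had the same procedures without insertion of the probe. Both groups had carried recording electrodes since an earlier operation, so sham rats were not untouched controls. RNA was taken 24 h after the procedure from the hemisphere on the injured side (ipsilateral) and from the opposite hemisphere (contralateral) of each rat. This gave 6 PBBI ipsilateral, 6 PBBI contralateral, 5 sham ipsilateral and 5 sham contralateral libraries.

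Annexins are proteins that bind acidic phospholipids of membranes when calcium rises. Annexin A1 is known as a glucocorticoid-induced inhibitor of inflammation that signals through formyl peptide receptors, and annexin A2 forms a complex with S100A10 that binds plasminogen and takes part in membrane repair. S100A6 (calcyclin) is a small EF-hand calcium-binding protein. CRIP1 is a small LIM-domain zinc-binding protein, and TAGLN (transgelin, SM22) is an actin-binding protein typical of smooth muscle. In brain, proteins of these families are found in astrocytes, vessel walls, meninges and infiltrating leukocytes.

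Total counts per library were between 42085341 and 63412426, so that each gene had at least 210 counts in every library. Levels are given as CPM after TMM normalization, that is, as counts scaled by the total of each library and a factor for its composition. The ipsilateral library of PBBI rat 85 stood apart. Its TMM factor of 0.706 was the lowest of the 22, with 1.21 the highest, and it correlated with the remaining libraries of its group at a mean r of 0.835, against 0.933 to 0.943 for the other 5. For some of the results that rest on it, values without it are also given. None of the fixed neuron or oligodendrocyte markers could be named, so the cortical origin of the tissue was not checked against them. In tissue RNA, a change in the number of cells of a type and a change in RNA per cell cannot be told apart.

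Promoter windows from 250 bases before to 50 after a RefSeq start site (assembly GRCr8) were found for 4 of the 5 genes, with 2 windows for Crip1. The windows of Anxa1, Anxa2 and S100a6 are printed because they share a feature that the choice of the genes did not use, a TATAA run 45 to 54 bases before the start site. Capitals mark matches to the motifs searched on both strands, which were TATAA (TATA box), TGANTCA (AP-1), GGGCGG (GC box), TTCNNNGAA (STAT), GGAATG (TEAD) and the CArG box, with no overlap between matches in these windows. The windows lie at chr1:227303683-227303982 (Anxa1, minus strand), chr8:78986002-78986301 (Anxa2, plus strand) and chr2:178398287-178398586 (S100a6, plus strand), and each is written 5′ to 3′ along the gene.
Anxa1: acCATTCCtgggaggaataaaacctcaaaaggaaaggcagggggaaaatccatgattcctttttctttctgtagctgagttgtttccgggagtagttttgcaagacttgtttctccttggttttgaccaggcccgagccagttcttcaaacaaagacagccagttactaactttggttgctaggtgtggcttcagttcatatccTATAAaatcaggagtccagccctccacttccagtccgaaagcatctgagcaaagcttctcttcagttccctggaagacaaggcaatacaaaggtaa
Anxa2: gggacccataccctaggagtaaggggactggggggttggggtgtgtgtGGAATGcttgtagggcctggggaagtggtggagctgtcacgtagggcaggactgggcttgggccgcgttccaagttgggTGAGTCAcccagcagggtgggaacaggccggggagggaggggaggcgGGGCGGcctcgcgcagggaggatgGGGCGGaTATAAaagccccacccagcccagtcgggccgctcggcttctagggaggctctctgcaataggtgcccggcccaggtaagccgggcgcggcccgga
S100a6: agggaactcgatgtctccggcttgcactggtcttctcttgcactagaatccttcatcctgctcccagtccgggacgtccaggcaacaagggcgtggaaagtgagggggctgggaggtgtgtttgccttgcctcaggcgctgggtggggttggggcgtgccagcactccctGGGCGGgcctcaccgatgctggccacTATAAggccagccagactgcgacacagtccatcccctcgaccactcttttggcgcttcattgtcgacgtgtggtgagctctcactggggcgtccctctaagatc

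The TATAA run began at -46 from the start site in Anxa1, -45 in Anxa2 and -54 in S100a6, and 26.2% of all 33469 promoter windows held one anywhere. The Anxa2 window alone among the 5 held an AP-1 match (TGAGTCA at -123), a motif present in 7.33% of all windows. It also held GGGCGG at -76 and -52, and S100a6 held GGGCGG at -80, a run found in 33.1% of windows. A TEAD match was found in Anxa1 (at -248, on the minus strand) and Anxa2 (at -202), against 14.2% of windows. The first Crip1 window held a STAT match at -48 (8.87% of windows) and the second held GGGCGG at -72 and -66, with no TATAA in either. No CArG box, present in 1.64% of windows, was found in the 5 windows. These are matches of letters and not measured binding sites.

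The 5 genes were compared with each other per kilobase of the gene lengths in the deposited table. In sham ipsilateral cortex S100a6 had the highest level, with a mean of 75.7 CPM per kb ± 51.9 (SD, n = 5). Tagln followed with 19.7 ± 11.9, Crip1 with 15.7 ± 4.35, Anxa1 with 13.2 ± 4.33 and Anxa2 with 12.5 ± 2.42, and these 4 differed by less than their spread. In PBBI ipsilateral cortex S100a6 was again the highest on this scale (402 ± 522, n = 6), with a median of 232 and 1452 in rat 85. Tagln (138 ± 81.2), Anxa2 (62.2 ± 36.4), Anxa1 (43.9 ± 13.4) and Crip1 (41.1 ± 28.0) followed in this order. Anxa2 thus moved from the last place in sham to the third in PBBI, although Anxa2, Anxa1 and Crip1 lay within the spread of each other.

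**Figure D1:**
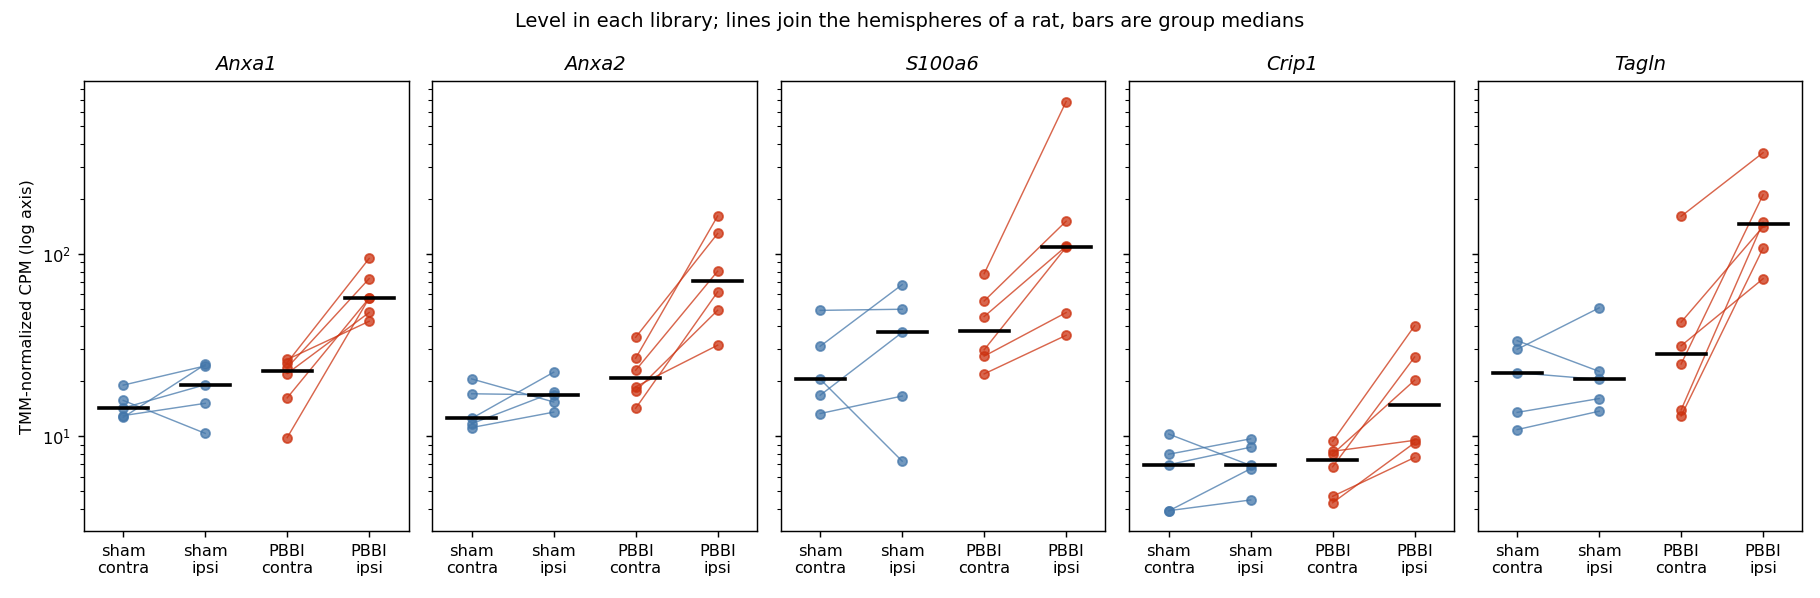
TMM-normalized CPM (log axis) of the 5 genes in the 22 libraries, by treatment and hemisphere, with lines joining the hemispheres of each rat and bars at the group medians. The PBBI ipsilateral libraries lie above all sham ipsilateral libraries for Anxa1, Anxa2 and Tagln, and overlap with them for S100a6 and Crip1.

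The first comparison asks how the injured hemisphere differs from the same hemisphere of sham rats. Anxa1, Anxa2 and Tagln were higher in PBBI by 3.31-, 4.99- and 7.02-fold, and these 3 of the 5 genes passed the test. S100a6 and Crip1 had fitted folds of 5.33 and 2.62 with wide errors and did not pass. In edgeR's quasi-likelihood test over all 16104 genes tested, 753 genes (4.68%) passed an adjusted p of 0.05, of which 659 (4.09%) were higher in PBBI. Fold changes above 0 were found in 48.3% of the genes tested and in all 5 of these. Because the 5 genes have names through the study's own ipsilateral calls, their share is not read against these figures.

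Anxa1 had 15.1, 19.2, 24.3, 10.4 and 24.7 CPM in the ipsilateral cortex of sham rats 82, 84, 86, 91 and 94. In the 6 PBBI rats its lowest, median and highest values were 42.7, 57.2 and 94.4 CPM. The groups did not overlap, since the lowest PBBI rat (83) was above the highest sham rat (94). Sham rats averaged 18.7 CPM ± 6.13 (SD, n = 5) and PBBI rats 62.1 ± 19.0 (n = 6), and the fitted log2 difference was 1.73 (SE 0.29, adjusted p = 0.00598 from edgeR). Among the 5 genes Anxa1 varied least between PBBI rats, with a coefficient of variation of 30.6%.

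Anxa2 had 17.4, 16.8, 13.6, 15.4 and 22.4 CPM in sham rats 82, 84, 86, 91 and 94. The lowest, median and highest PBBI values were 31.6, 71.1 and 161 CPM, and again every PBBI rat lay above every sham rat. The log2 fold change was 2.32 (SE 0.39, adjusted p = 0.00665 from edgeR). The PBBI rats spread over 5.11-fold, from rat 83 to rat 81, whereas the sham rats spread over 1.66-fold.

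Tagln had 16.1, 20.5, 50.6, 13.7 and 22.7 CPM in sham rats 82, 84, 86, 91 and 94. PBBI rats had between 73.1 and 359 CPM with a median of 145, and did not overlap with sham. Sham rat 86 lay far above the other sham rats and was still below the lowest PBBI rat. Tagln had the largest fold change of the 5 genes, with a log2 value of 2.81 (SE 0.47, adjusted p = 0.00610 from edgeR).

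S100a6 had 7.30, 37.1, 67.8, 16.6 and 49.7 CPM in sham rats 82, 84, 86, 91 and 94, a 9.30-fold spread within uninjured cortex. The lowest, median and highest PBBI values were 35.8, 109 and 685 CPM, so that the groups overlapped. The highest value came from rat 85, and the next highest was 151 CPM in rat 81. PBBI rats 83 and 90 lay below the highest sham rat. The log2 fold change of 2.41 had an SE of 0.81 and an adjusted p of 0.122 from edgeR. Without rat 85 it was 1.32 (SE 0.55, adjusted p = 0.119 from edgeR).

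Crip1 had 6.63, 8.71, 9.68, 4.47 and 6.91 CPM in sham rats 82, 84, 86, 91 and 94. The PBBI values fell apart, with 40.4, 27.2 and 20.3 CPM in rats 85, 81 and 96, and 9.50, 9.20 and 7.64 CPM in rats 83, 88 and 90. The latter 3 rats were within the sham range. Its log2 fold change was 1.39 (SE 0.45, adjusted p = 0.111 from edgeR), and 1.02 without rat 85 (adjusted p = 0.0862 from edgeR).

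A two-sided exact permutation test of the mean log2 CPM over the 462 splits of 11 rats gave p = 0.00216 for Anxa1 and Tagln, the smallest it can give, and p = 0.00433 for Anxa2. The exact permutation p was 0.0390 for S100a6 and 0.0476 for Crip1. These are 5 of 25 such tests on single genes and are not adjusted. Complete separation of PBBI above sham was seen in 563 of the 16104 genes (3.50%). Anxa1, Anxa2 and Tagln passed in all 11 edgeR fits that each left out 1 rat, and S100a6 and Crip1 in none. DESeq2 with or without its prior (1680 and 1702 genes called, 7.47% and 7.57% of those tested) and edgeR on all 22 libraries in 1 fit (9.98% of genes called) passed all 5 genes. The voom test of limma with quality weights (31.1% of genes called) passed 4, without Crip1.

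Contralaterally the question is whether the injury reaches the opposite hemisphere, and none of the 5 genes passed the test. No gene of the 15907 tested did in edgeR (0%), with 366 at an unadjusted p under 0.05, while DESeq2 without prior called 3 genes (0.0135%), DESeq2 with prior 0 and voom 1 (0.00629%). Log2 fold changes were 0.46 (SE 0.24) for Anxa1, 0.63 (SE 0.25) for Anxa2, 0.71 (SE 0.39) for S100a6, 0.05 (SE 0.30) for Crip1 and 1.11 (SE 0.61) for Tagln. All 5 were above 0, as were 48.8% of all genes tested, but Crip1 turned to -0.093 when sham rat 82 was left out, to -0.07 when it was sham rat 91 and to -0.06 when it was PBBI rat 85.

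In the contralateral cortex of sham rats 82, 84, 86, 91 and 94, Anxa2 had 11.7, 17.1, 11.2, 20.6 and 12.5 CPM, and PBBI rats had between 14.2 and 34.9 with a median of 20.8. The exact permutation p of Anxa2, 0.0455, was the smallest of the 5 genes contralaterally. Anxa1 had 12.97, 14.3, 19.1, 15.7 and 12.7 CPM in the same sham rats, and between 9.82 and 26.4 with a median of 22.9 in PBBI (exact permutation p = 0.165). The sham and PBBI ranges overlapped for both annexins, and 0.0943% of all genes had every PBBI rat above every sham rat on this side.

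Tagln was carried by a single rat on this side. It had 13.5, 22.3, 30.0, 10.9 and 33.4 CPM in sham rats 82, 84, 86, 91 and 94, and 161 CPM in PBBI rat 88 against 12.9 to 42.2 CPM in the other 5 PBBI rats (exact permutation p = 0.394). Without rat 88 its contralateral log2 fold change was 0.18. S100a6 had 20.6, 16.8, 31.2, 13.3 and 49.0 CPM in sham and between 21.97 and 77.9 with a median of 37.6 in PBBI (exact permutation p = 0.128). Crip1 had 3.89, 6.98, 7.97, 3.90 and 10.3 CPM in sham and between 4.31 and 9.37 with a median of 7.39 in PBBI, the smallest difference of the 5 (exact permutation p = 0.712).

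**Figure D2:**
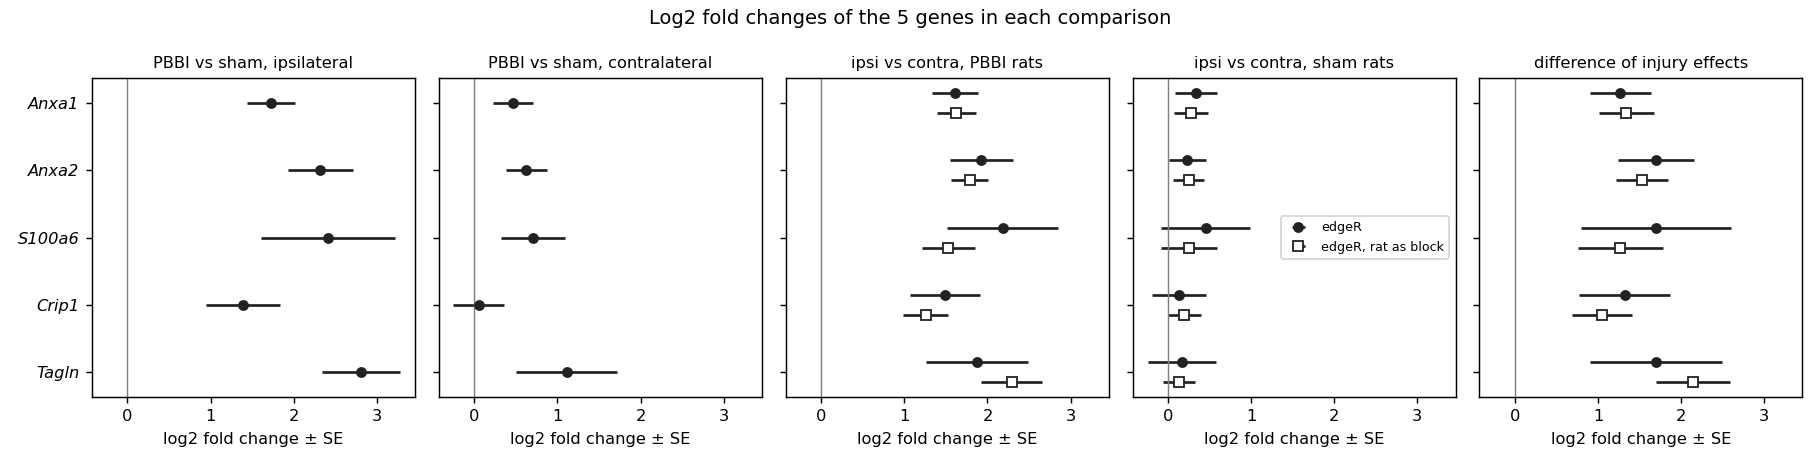
Log2 fold change (± SE) of the 5 genes in each comparison, from edgeR without (filled) and, for comparisons of hemispheres, with the rat as a block (open squares). Ipsilateral values range from 1.39 to 2.81 and contralateral values from 0.05 to 1.11, and the differences between sham hemispheres lie between 0.14 and 0.45 without the block.

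Within PBBI rats, the injured hemisphere was set against the opposite hemisphere of the same animals. All 5 genes were higher ipsilaterally in 6 of 6 rats. In the main fit, without the rat as a block, Anxa1 and Anxa2 passed the test, and with the rat as a block all 5 did. The exact sign-flip permutation p was 0.0312 for each gene, the smallest that 6 rats allow. A higher ipsilateral level in every PBBI rat was found in 1717 of 15973 genes (10.7%). With the block edgeR called 1646 genes (10.3%), with adjusted p of 0.0100 for Anxa1, 0.00825 for Anxa2, 0.0232 for S100a6, 0.0272 for Crip1 and 0.0135 for Tagln. Without the block edgeR called 568 genes (3.56%), and of the 5 genes Anxa1 (adjusted p = 0.0130) and Anxa2 (adjusted p = 0.0183) passed. DESeq2 (7.21% of genes called) and voom (23.1%) passed all 5. These comparisons share the PBBI ipsilateral libraries with the comparison against sham.

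Without the block, 2.97% of all genes were called as higher ipsilaterally, and with it 6.68%, and 52.7% had a fold change above 0. Leaving out 1 rat, 2 to 5 of the 5 genes passed with the block, with the fewest without rat 90, and 0 to 2 without it, with none when rat 88 or rat 96 was left out.

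The ratio of ipsilateral to contralateral CPM in PBBI rats ranged from 1.62 (rat 83) to 5.82 (rat 90) for Anxa1. For Anxa2 it ranged from 1.69 (rat 83) to 6.03 (rat 81). Rat 83 had the lowest ratio for these and for S100a6 (1.63) and Crip1 (1.15), while the lowest ratio of Tagln was in rat 88 (2.23), whose contralateral level was already high. S100a6 reached 8.80 and Crip1 4.30, each in rat 85. Tagln had the widest differences, with ratios of 8.33, 8.48 and 10.7 in rats 90, 85 and 96 and of 2.23, 2.33 and 3.34 in rats 88, 83 and 81.

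In sham rats the hemispheres gave the background of this comparison. None of the 5 genes passed with or without the block, and edgeR called no gene of 15747 (0%), with 47 at an unadjusted p under 0.05, 238 with the block, and no gene called by DESeq2 or voom. Of all genes, 52% had a fold change above 0 and 1.83% were higher ipsilaterally in every sham rat, which none of the 5 genes was. Anxa1 was higher ipsilaterally in 4 of 5 sham rats, with ratios of 0.660 to 1.95. Ratios were 0.748 to 1.79 for Anxa2, 0.355 to 2.21 for S100a6, 0.673 to 1.70 for Crip1 and 0.678 to 1.69 for Tagln. Exact sign-flip permutation p ranged from 0.375 to 0.8125, and 5 rats cannot go below 0.0625.

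The difference between these differences tests whether the injury effect was larger ipsilaterally. In the main fit, without the rat as a block, none of the 5 genes passed. With the rat as a block, Anxa1, Anxa2 and Tagln passed, and S100a6 and Crip1 did not. The blocked log2 differences were 1.34 (SE 0.33, adjusted p = 0.0422 from edgeR) for Anxa1, 1.53 (SE 0.31, adjusted p = 0.0209) for Anxa2 and 2.15 (SE 0.45, adjusted p = 0.0209) for Tagln. S100a6 had 1.27 (SE 0.52, adjusted p = 0.193) and Crip1 1.05 (SE 0.36, adjusted p = 0.122). The block called 708 of 16587 genes (4.27%), and 2.95% as larger ipsilaterally. Without it edgeR called 54 genes (0.326%) and none of the 5, whose log2 differences were 1.27 to 1.70 with adjusted p between 0.121 and 0.580, beside 0.307% of genes called as larger ipsilaterally and 50% with a value above 0. Voom (10% of genes called) passed 3 of the 5 genes and DESeq2 (1.48%) passed Anxa2.

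The calls of the blocked fit depended on single rats. Without sham rat 84 or sham rat 91, none of the 5 genes passed. Only 1 passed without sham rat 82 or without PBBI rat 90, and 4 passed without PBBI rat 83. The log2 differences themselves stayed between 1.12 and 1.52 for Anxa1, 1.36 and 1.73 for Anxa2 and 1.91 and 2.38 for Tagln over the 11 fits. In the exact permutation test of the within-rat differences over 462 splits, p was 0.00866 for Anxa1, 0.00649 for Anxa2 and Tagln, 0.0411 for S100a6 and 0.0325 for Crip1. Tagln was the gene whose differences in all 6 PBBI rats exceeded those in all 5 sham rats, as was seen in 568 of all 16587 genes (3.42%).

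**Figure D3:**
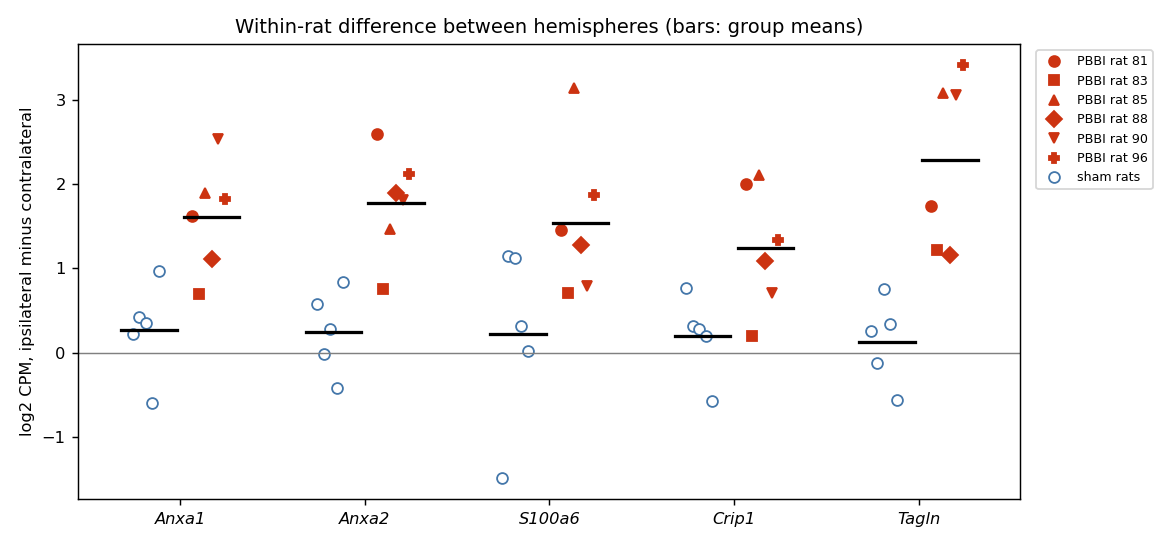
Ipsilateral minus contralateral log2 CPM of each rat for the 5 genes, with sham rats as open circles, PBBI rats as filled symbols by rat number, and bars at the group means. All PBBI points lie above 0, and the sham points lie on either side of 0 for every gene.

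The 6 injured hemispheres did not rank alike for the 5 genes. Rat 83 was the lowest for Anxa1, Anxa2, S100a6 and Tagln, at a median over the 5 genes of 0.90 above the sham mean on the log2 scale. Rat 85 was the highest for Anxa1, S100a6 and Crip1 (median 2.51), and yet the second lowest for Anxa2 with 49.1 CPM. Rat 81 was the highest for Anxa2 (161 CPM), and rat 88 the highest for Tagln in both hemispheres (359 and 161 CPM). The rank of rat 85 depended on its TMM factor. In CPM of the total count, without that factor, rat 81 exceeded rat 85 for Anxa1 (79.8 against 66.7) and for Crip1 (29.6 against 28.5), and rat 85 stayed the highest for S100a6 (484).

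Likeness between genes was described by Pearson's r of deviations from the group means over the 22 libraries, which share rats, depth and the features of each library. Among the 5 genes, S100a6 and Crip1 were the most alike with r = 0.70, and Anxa1 followed S100a6 (0.60) and Crip1 (0.58). The values of Anxa2 were 0.35 with Tagln, 0.11 with Anxa1, 0.02 with S100a6 and -0.17 with Crip1. Without the ipsilateral library of rat 85 they were 0.40, 0.23, 0.24 and -0.03, and S100a6 and Crip1 had 0.56.

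Of the 1715 named genes compared, those most like Anxa1 were Glipr1 (0.81), Kdelr3, an ER retention receptor (0.80), and Ms4a6c (0.77). Those most like Anxa2 were Plin2, a lipid droplet protein (0.86), Ctsb, the lysosomal protease cathepsin B (0.86), and Rara, a retinoic acid receptor (0.85). S100a6 had the closest matches, with Cyba, a subunit of the phagocyte NADPH oxidase (0.96), Gngt2 (0.95) and Ppp1r14b (0.94). Crip1 was most like Gmfg (0.91), Lpxn, a leukocyte adaptor of focal adhesions (0.86), and Ifi27l2b (0.81). Tagln was most like Cnn1, the smooth muscle protein calponin 1 (0.86), Mis18a (0.82) and Hn1l (0.80). Without the ipsilateral library of rat 85 the gene most alike was Kdelr3 for Anxa1, Plin2 for Anxa2, Gngt2 for S100a6 and Cnn1 for Tagln, and Ifi27l2b fell to rank 16 for Crip1.

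Some of these levels moved with a library score that sets short genes against long ones. S100a6 (472 bases) and Crip1 (463 bases) are short, and Anxa1, Anxa2 and Tagln have 1415, 1376 and 1254 bases. A score of each library was taken as the median centred log2 CPM of 1200 genes under 600 bases minus that of 3122 genes over 4000 bases, leaving out the 5 genes. It was 1.78 in the ipsilateral library of rat 85 and between -0.81 and 1.02 in the other 21 libraries. Within groups, the score correlated with S100a6 (r = 0.83, n = 22 libraries, 0.72 without that library) and Crip1 (0.80, 0.72 without it). The values were 0.57 for Anxa1, 0.34 for Tagln and -0.38 for Anxa2, and the median over all genes under 600 bases was 0.60. Over all 16587 genes the median was -0.07. An r at or above that of S100a6 was found in 11.3% of them, and at or above that of Crip1 in 12.7%.

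**Figure D4:**
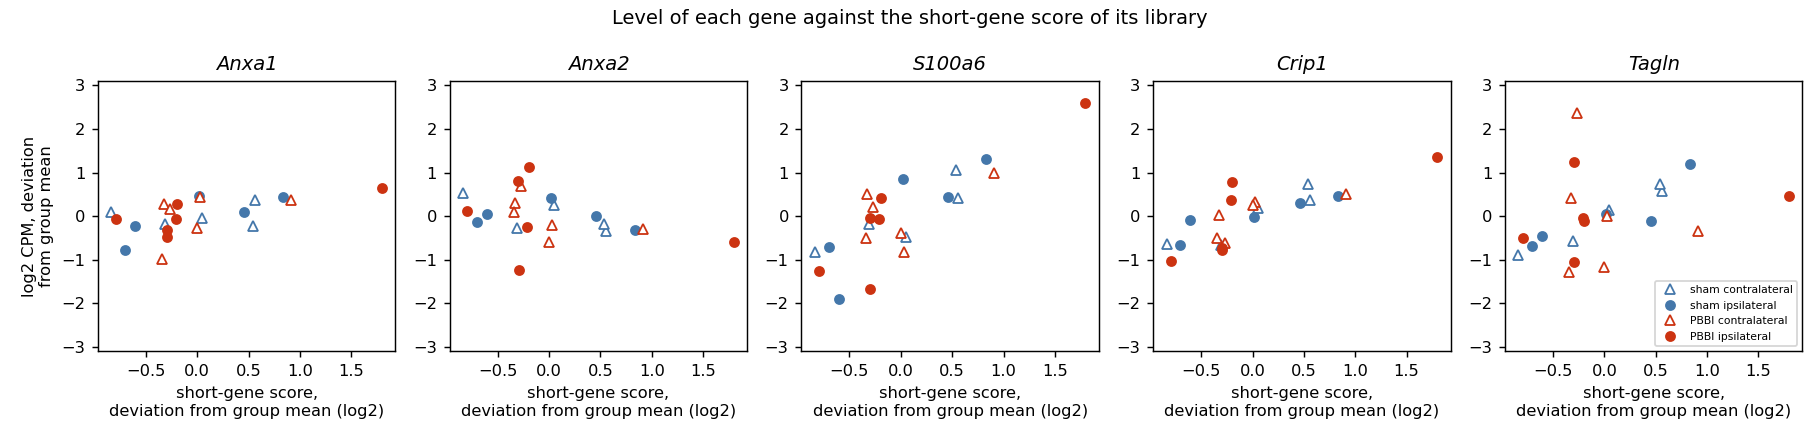
Log2 CPM of each gene against the short-gene score, both as deviations from the group mean, in the 22 libraries (circles ipsilateral, triangles contralateral). S100a6 and Crip1 rise with the score, and the library farthest to the right is the ipsilateral library of PBBI rat 85.

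Entering the score as a covariate in edgeR, chosen after the data were seen, left the ipsilateral fold changes close to where they were and narrowed the errors. S100a6 then had a log2 fold change of 2.35 (SE 0.37, adjusted p = 0.00188) and Crip1 of 1.42 (SE 0.29, adjusted p = 0.00859). All 5 genes passed, beside 2428 of all 16104 genes (15.1%), and 4 passed between the hemispheres of PBBI rats (13.4% of genes called) and 2 in the difference of injury effects (1.43%). With the block added these were 5 (22.4%) and 5 (12.1%). Without the block, the score lowered the S100a6 log2 value from 2.18 to 1.44 between PBBI hemispheres. In the difference of injury effects it went from 1.70 to 1.28. Crip1 went from 1.49 to 1.28 and from 1.32 to 1.17, and Anxa1, Anxa2 and Tagln changed less.

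Ipsilaterally, all 5 genes also passed with the score when rat 85 was left out (7.25% of genes called). The score was computed from the same libraries and its share in the differences between rats was not tested.

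The families of the 5 genes were described from lists chosen with earlier results known, and only named members could be shown. In these and the partner lists, members have names mostly through the study's ipsilateral calls, so their counts are descriptions and are not read against all genes (4.09% called higher ipsilaterally, 48.3% above 0). Among annexins, 4 of 12 genes were named, and Anxa1, Anxa2 and Anxa3 (log2 fold change 0.90, adjusted p = 0.0423 from edgeR) were higher in the injured hemisphere. Anxa7 had 0.61 (adjusted p = 0.0679). The median of the 4 was 1.31, against -0.02 for all genes tested. Contralaterally none of the 4 passed, with a median of 0.41.

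Of 17 genes in the S100 list, 6 were named, and S100a10 and S100a11 were the 2 that passed ipsilaterally. S100a10, the partner of annexin A2, had between 109 and 1232 CPM in PBBI and 35.8 to 95.0 in sham, a log2 fold change of 2.98 (SE 0.57, adjusted p = 0.0127 from edgeR). S100a11 had 4.29 to 35.6 CPM in PBBI and 0.775 to 3.37 in sham (log2 fold change 2.97, adjusted p = 0.0148). S100a4, S100a8 and S100a9 had log2 fold changes of 2.83, 3.07 and 2.34 and did not pass (adjusted p from 0.0747 to 0.269). The median log2 fold change of the 6 genes was 2.90 ipsilaterally, 2.23 without rat 85, and 0.39 contralaterally, where none passed. In rat 85, S100a4 (763 CPM) and S100a10 (1232 CPM) were the highest of all 22 libraries, as S100a6 was.

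All 5 named genes among 6 transgelins and calponins had ipsilateral log2 fold changes above 0 (48.3% of all genes did), and 4 passed, beside 4.09% of all genes called higher. Besides Tagln these were Tagln2 (log2 fold change 2.50, adjusted p = 0.00164 from edgeR), Cnn2 (2.67, adjusted p = 0.0112) and Cnn3 (1.47, adjusted p = 0.0142), which encode actin-binding proteins found outside smooth muscle as well. Cnn1, typical of smooth muscle, had 0.823 to 5.87 CPM in PBBI and 0.190 to 1.34 in sham (2.11, adjusted p = 0.0882). Tagln2 was the single gene of this list to pass the unblocked test of a larger injury effect ipsilaterally (2.04, adjusted p = 0.041 from edgeR). Contralaterally none of the 5 passed, with a median of 0.39.

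Of the 6 CRIP and CSRP genes, Crip1 and Csrp3, a muscle LIM protein, were named. Csrp3 had 0 counts in 4 of 5 sham ipsilateral libraries and 2 counts in the other. The PBBI ipsilateral libraries had 10 to 148 counts. Only through them did Csrp3 enter the test, so its pass (adjusted p = 0.00283 from edgeR) is not read as a result. No fold is given for it, since the sham counts were at or under the floor of 3 counts. It did not enter the fit without rat 85.

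**Figure D5:**
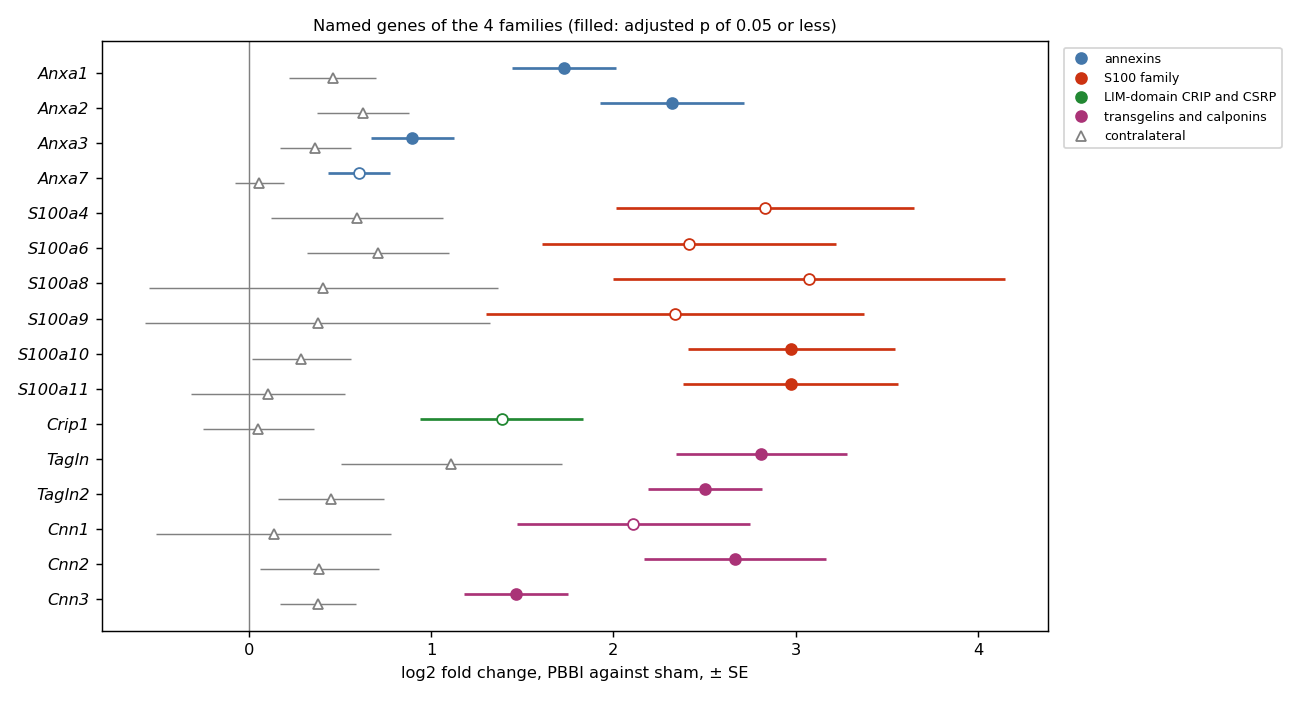
Log2 fold changes (± SE) of PBBI against sham for the named genes of the 4 families, ipsilateral as circles (filled where the adjusted p passed 0.05) and contralateral as grey triangles. All 16 genes shown lie above 0 ipsilaterally, and Csrp3 is left out because its sham counts were at or under the floor.

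Partners known to act with these proteins were also described. Of 11 genes of annexin A2 complexes and plasminogen activation, 9 were named, mostly through those calls, and 6 were higher ipsilaterally (4.09% of all genes), with a median log2 fold change of 1.52. They included Plau, the urokinase-type activator (3.67, adjusted p = 0.0271 from edgeR), and its receptor Plaur (3.15, adjusted p = 0.00609). Contralaterally none of the 9 passed, and the median was 0.31. Of 10 partners of S100A6, 2 were named, and Anxa2 was the 1 that passed. None of the formyl peptide receptor genes could be named.

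Of 30 actin-binding and focal adhesion genes, 15 were named, again mostly through those calls, and 12 were higher ipsilaterally (4.09% of all genes), with a median of 1.62. The largest changes were in Flnc, the actin crosslinker filamin C (3.44, adjusted p = 0.00247 from edgeR), Msn, the membrane linker moesin (3.08, adjusted p = 0.00504), and Capg, an actin-capping protein (3.04, adjusted p = 0.00195). With the rat as a block, 14 of the 15 also passed the test of a larger injury effect ipsilaterally, beside 2.95% of all genes. Contralaterally none passed (median 0.28). Of 23 actin and smooth muscle contractile genes 4 were named, and Myl12a, a myosin light chain, passed ipsilaterally (1.51, adjusted p = 0.0283).

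Without the ipsilateral library of rat 85, edgeR called 13.7% of all genes ipsilaterally. The counts were then 4 of 4 annexins, 2 of 6 S100 genes, 4 of 5 transgelins and calponins, 9 of 9 annexin A2 partners, 14 of 15 actin-binding genes and 3 of 4 contractile genes. Crip1 was the 1 CRIP or CSRP gene tested and did not pass.

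Markers of cell types that the tissue can hold did not all move alike. Named markers, too, mostly have names through the study's ipsilateral calls, so their counts are descriptions and are not read against all genes. Of 7 astrocyte markers, 4 were named. Their summed level was 461 to 1037 CPM in sham and 2223 to 7416 in PBBI ipsilaterally. Contralaterally it was 574 to 1311 in sham and 628 to 4503 in PBBI. Mean PBBI ipsilateral levels were 4564 CPM for Gfap, 524 for Vim, 15.5 for Gjb6 and 7.27 for Aldh1l1, so the sum mostly follows Gfap. Gfap (log2 fold change 2.99, adjusted p = 0.00407 from edgeR) and Vim (2.89, adjusted p = 0.00132), both intermediate filament genes, were higher ipsilaterally and Aldh1l1 was lower (-0.96, adjusted p = 0.0418). Gjb6, the remaining marker, had -1.53 (adjusted p = 0.120 from edgeR). Of 8 monocyte or macrophage markers 7 were named, and their sum was 99.0 to 238 CPM in sham and 201 to 985 in PBBI ipsilaterally, against 109 to 168 and 125 to 239 contralaterally. Of the 6 that were tested, 4 were higher ipsilaterally (4.09% of all genes were). They included Cd14, a lipopolysaccharide co-receptor (5.17, adjusted p = 0.00274 from edgeR), the integrin gene Itgam (2.58, adjusted p = 0.00833) and Plac8 (2.47, adjusted p = 0.0217).

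Of 6 neutrophil markers 5 were named and none of the 3 tested passed, against 1 of 3 without rat 85. Their sum, which includes S100a8 and S100a9 of the S100 list, was 5.24 to 50.5 CPM in sham and 10.8 to 187 in PBBI ipsilaterally, and 5.38 to 44.9 and 6.30 to 54.8 contralaterally, and Elane was at 0 in all 5 sham ipsilateral libraries. Rats 81, 85 and 96, where Crip1 was above 20 CPM, had neutrophil sums of 187, 170 and 113 CPM, and the other 3 PBBI rats had 10.8 to 49.5. The same rats also had the highest monocyte or macrophage sums, 985, 510 and 777 CPM, against 201 to 462 in the other 3. Rat 83, the lowest of the 6 for 4 of the 5 genes, also had the lowest monocyte sum (201 CPM) and the lowest neutrophil sum (10.8 CPM).

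Of 7 smooth muscle or pericyte markers 3 were named (Des, Cnn1 and Rgs5) and none passed. Their sum was 18.8 to 33.3 CPM in sham and 24.3 to 56.8 in PBBI ipsilaterally, with medians of 29.6 and 25.3, and 15.9 to 32.8 and 20.5 to 34.8 contralaterally. The 56.8 CPM was rat 85 alone, and the other 5 PBBI rats had 24.3 to 32.3 CPM, inside the sham range. Rgs5 had a log2 fold change of -0.79 (adjusted p = 0.316 from edgeR), while Des had 1.89 (adjusted p = 0.171) and Cnn1 2.11 (adjusted p = 0.0882). The median of the 3 was 1.89, and 1.08 without rat 85. Mean sham ipsilateral levels were 4.22 CPM for Des and 0.576 for Cnn1, so the sham sum was on average mostly Rgs5. In rat 88, whose Tagln was the highest in both hemispheres, Cnn1 was also the highest of its group in each (5.87 CPM ipsilaterally and 1.45 contralaterally). Of 6 microglia markers 2 were named, with sums of 33.4 to 47.2 CPM in sham and 11.7 to 30.7 in PBBI ipsilaterally, against 36.2 to 56.9 and 24.0 to 62.8 contralaterally. Siglec5 was lower (-1.84, adjusted p = 0.0177 from edgeR). No fibroblast or endothelial marker could be named. The part of these cell types in the levels of the 5 genes was not tested.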

How the data were processed

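RNA of both hemispheres of 11 rats was sequenced as stranded, ribosomal RNA-depleted libraries with paired reads. Per the labels and the study's methods, reads were aligned with STAR 2.4.2a to Rnor 6.0 and counted per Ensembl gene with featureCounts 1.4.3-p1, and the authors deposited raw counts, which are reads and not molecules. Groups follow the labels. All 22 columns were used.

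Each comparison used edgeR 4.0.16 (quasi-likelihood test, TMM, filterByExpr, R 4.3.3) with Benjamini-Hochberg adjustment over all genes tested and a threshold of 0.05. In simulated counts it recovered 125 of 200 log2 changes of 2 ipsilaterally. Over all comparisons it recovered 92 to 161 of 200 without the block and 61 to 146 with it. The simulated libraries had no rat effect, so they could not test the pairing. DESeq2 1.42.0, voom of limma 3.58.1, RLE scaling, other filters, 1 fit of all libraries, left-out rats and the rat as a block were alternatives. The study's own fits used DESeq2 in each hemisphere. Log2 CPM had a prior count of 2. Exact permutation tests of single genes were two-sided, and their 25 p-values were not adjusted. P-values of fits within 1 hemisphere, of the block and of the exact tests measure the spread between these rats at 1 time. Fits of both hemispheres without the block treat the 2 libraries of a rat as independent. Both libraries of a rat come from that animal and deviated together (r = 0.25 to 0.76 over 16587 genes in 11 rats), so the block pairs them.

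The 5 genes and all lists were chosen with earlier results of these data known. The short-gene score, the left-out rats under the block and the list counts without rat 85 were added after the data were seen. Names came from 2 supplementary tables. All 5 genes were named, with the named members of their families, the 3 genes past the threshold with the largest ipsilateral change in other lists, and the 3 most alike by r. Some genes that this rule or the lists would name are not reported here. Promoters are from RefSeq (GRCr8).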

Additional observations from a re-analysis of the deposited data

Results flagged for a closer look

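In groups of 5 or 6 rats, Dixon's 95% limit was applied to the CPM values of these genes, not to log2 CPM. In 3 of the 20 sets a rat lay farther from the rest than it allows. By chance about 1 in 20 sets do so if values are normally distributed. That was not tested for CPM, so the 3 are not read against that rate. S100a6 was at 685.2 CPM in the ipsilateral cortex of PBBI rat 85. Tagln was at 160.8 CPM in the contralateral cortex of PBBI rat 88, and at 50.6 CPM in the ipsilateral cortex of sham rat 86.

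The difference between hemispheres was larger in PBBI than in sham rats for each gene, by the exact permutation test of within-rat log2 differences with no adjustment over genes. The excess was 1.34 for Anxa1 (exact p = 0.00866), 1.52 for Anxa2 (exact p = 0.00649), 1.32 for S100a6 (exact p = 0.0411), 1.04 for Crip1 (exact p = 0.0325) and 2.15 for Tagln (exact p = 0.00649). In edgeR with the rat as a block, S100a6 (adjusted p = 0.193) and Crip1 (adjusted p = 0.122) did not pass. Without the block none of these genes did.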

How the results depend on the processing

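Ipsilaterally 3 of the 5 genes passed in the reported fit. With DESeq2 without prior 5 passed, with DESeq2 with prior 5, with all 22 samples in 1 fit 5, with the short-gene score 5, with the score and without PBBI rat 85 5, with voom 4, and with each rat left out 3 to 3. All genes called were 753 in the reported fit, 5014 with voom, 1702 and 1680 with DESeq2 without and with prior, 1655 in 1 fit of all samples, 2428 with the score and 316 (without sham rat 91) to 2186 (without PBBI rat 85) with a rat left out.

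For the difference of injury effects the reported count, from the fit without the block, was 0 of 5. It was 3 with voom, 1 with DESeq2, 2 with the score and 0 to 1 with a rat left out. The rat as a replicate block gave 3, and 5 with the score added. Leaving out rats under the block gave 0 to 4, with 0 without sham rat 84 or 91 and 1 without sham rat 82 or PBBI rat 90. All genes called were 54, against 1663 with voom, 349 with DESeq2, 708 with the block, 238 with the score, 2007 with block and score, and 0 to 255 with a rat left out. Between hemispheres of PBBI rats 2 passed in the reported fit, also without the block. The count was 5 with voom, 5 with DESeq2, 5 with the block, 4 with the score and 0 to 2 with a rat left out. Under the block, leaving out a rat gave 2 to 5, with 3 without rat 81, 88 or 96 and 2 without rat 90. All genes called were 568, against 3695 with voom, 1596 with DESeq2, 1646 with the block, 2140 with the score, 3580 with block and score, and 1 (without rat 88) to 1149 (without rat 85) with a rat left out. Contralaterally and between sham hemispheres, no member passed in any setting.

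Of 550 values of single genes under alternatives, 544 kept their direction. These values are log2 fold changes and, for the genes most alike, r without the ipsilateral library of rat 85. Crip1 contralaterally ranged from -0.093 (sham rat 82 left out) to 0.28, and was -0.07 when sham rat 91 and -0.06 when PBBI rat 85 was left out. Tagln between sham hemispheres ranged from -0.14 (without rat 86) to 0.41, and was -0.027 without rat 86 under the block. S100a6 there was -0.011 with block and score. The cause of these changes was not tested.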
